A study of Mus musculus with 6 samples.

Results

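Transfer RNA (tRNA) was measured as 45 rows of class tRNA among the 1336 repeat and structural RNA rows counted in fibroblasts grown from mouse embryos. Knockout (KO) cells, genotype Actb-/-, lack β-actin, which forms filaments in the cytoplasm and is also found in the nucleus, and were compared with wild-type (WT) cells. Both genotypes are labelled BALB/c and come from embryos of 10.5 days, and the series states 3 biological replicates of each. No source used here says how many embryos or cell lines stand behind the replicates, so p-values measure the spread between these libraries. Members were chosen by the class given in the files and were grouped by the amino acid and the codon written in the row name.

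A tRNA carries an amino acid to the ribosome and reads the codon of the messenger RNA with its anticodon. RNA polymerase III makes tRNAs from promoters that lie inside the gene, and each amino acid is loaded onto its tRNAs by its own aminoacyl-tRNA synthetase. Mature tRNAs are short, tightly folded and heavily modified, and genomes also hold many tRNA-like copies and SINE retrotransposons derived from tRNA. The letters in the names had to be read as codons: in 43 of 43 rows that carry them they encode the named amino acid under the standard code, and in 0 of these would they do so as an anticodon. Y stands for C or T. The other 2 rows are methionine tRNAs, tRNA-Met-i being the initiator that starts translation and tRNA-Met the row named without that mark. The rows cover 20 amino acids. Selenocysteine and mitochondrial tRNAs were not analysed here. Each row is a sum over all genomic copies, so it has no single position, and reads of a mature tRNA, its precursor and a tRNA-like copy inside another transcript cannot be told apart.

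The libraries held 7708630 to 19288620 counts, of which ribosomal RNA took from 84.8% (exact 95% interval 84.81 to 84.85), in KO replicate 1, down to 32.4% (32.38 to 32.45), in WT replicate 1, intervals that cover counting error only. The tRNA rows together had 1153, 2711 and 2125 counts in KO replicates 1 to 3 and 4931, 1747 and 3045 in WT replicates 1 to 3. Levels below are normalized CPM, read counts scaled to a common library size with the factors of edgeR's TMM method, which follows the bulk of repeat rows and not the ribosomal RNA. The files hold no protein-coding genes, so Actb and fibroblast markers were not analysed here.

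Relative to the bulk of repeat rows, KO libraries held fewer reads in tRNA rows. How much of the cells' mature tRNA the library preparation captured was not measured, so these levels describe reads in the libraries. All tRNA rows together reached 141, 135 and 143 normalized CPM in KO replicates 1 to 3, against 205, 227 and 212 in WT replicates 1 to 3. The KO mean was 0.651 of the WT mean (140 ± 4.54 against 215 ± 11.5, SD, n = 3 each), and the genotypes did not overlap. As a share of all counts outside ribosomal RNA, tRNA took 0.0519% ± 0.0117 in KO and 0.0770% ± 0.0169 in WT, and on that measure the libraries did overlap. In these bulk samples, several readings cannot be told apart. They are less tRNA per cell, a different mix of cells, fewer reads from precursors or tRNA-like copies, different capture, and a change in the repeat rows that set the scale.

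Of the 45 rows, 39 had enough counts to be tested and 13 of these fell in KO, while 0 rose (adjusted p below 0.05 in edgeR's quasi-likelihood test, Benjamini-Hochberg over all 1193 tested rows). Over all tested rows 3.6% were called lower and 2.18% higher. The falls came from 10 amino acids: both rows of glutamine and of glutamate, 2 of the 3 valine rows, and 1 row each of asparagine, serine, threonine, histidine, lysine, cysteine and tyrosine. The median log2 fold change was -0.78 over the 39 tRNA rows and 0.012 over all tested rows. In 24 of the 39 all KO libraries lay below all WT libraries, against 13.4% of all tested rows, and in 0 did all KO libraries lie above, against 12.4%. At an unadjusted p below 0.05 edgeR had 24 tRNA rows lower, against 11.3% of all tested rows, and 0 higher, against 9.56%. DESeq2 and limma-voom also called 0 tRNA rows higher.

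**Figure D1:**
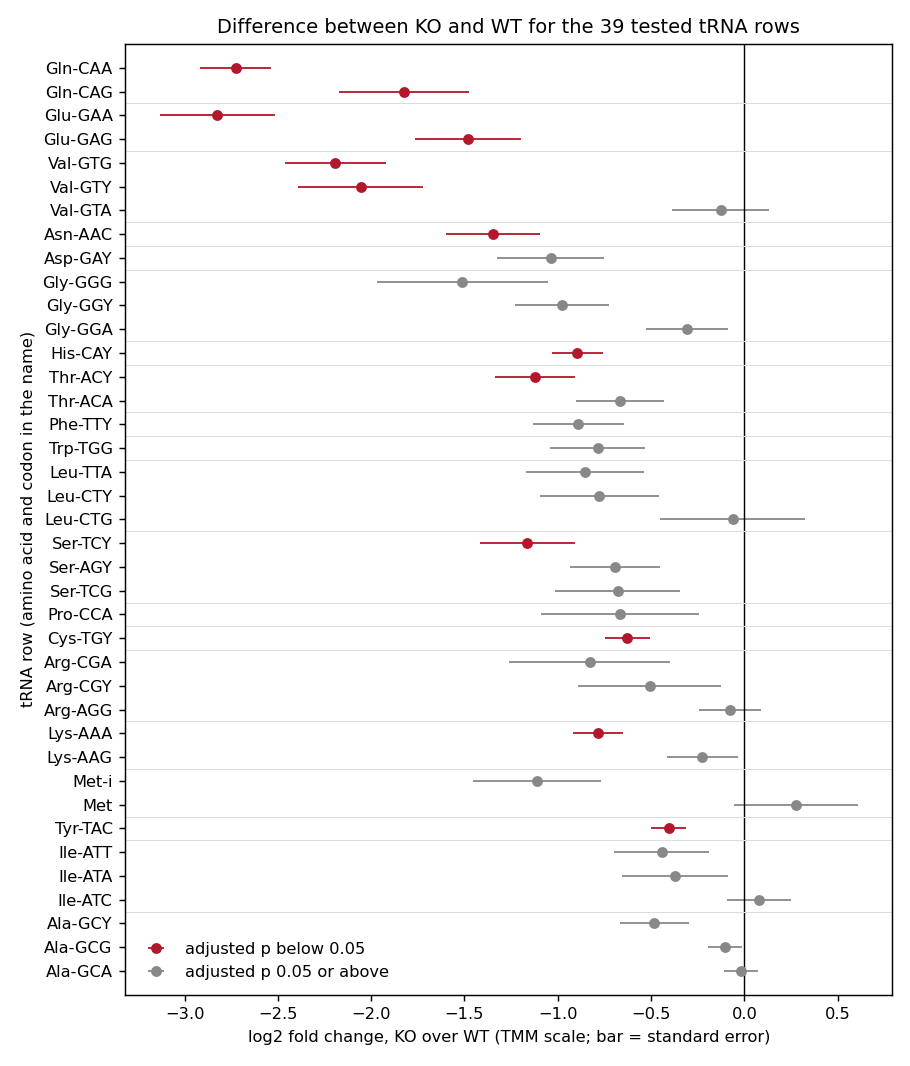
Log2 fold change of KO over WT on the TMM scale for the 39 tested tRNA rows, with the standard error as a bar, grouped by amino acid and ordered by each amino acid's median; red marks an adjusted p below 0.05. The 2 glutamine and 2 glutamate rows lie between -2.82 and -1.48, while the alanine and isoleucine rows at the bottom lie between -0.48 and 0.079.

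How many rows passed depended on the libraries and the scale. Leaving out 1 library left 11 called rows without KO replicate 1, 4 without KO replicate 2, 6 without KO replicate 3, 10 without WT replicate 1, 8 without WT replicate 2 and 5 without WT replicate 3. With the libraries poorest in ribosomal RNA, WT replicate 1 and KO replicate 2, both left out, 3 rows were called: tRNA-Glu-GAA, tRNA-Gln-CAA and tRNA-Val-GTG. The same 3 passed when a change of at least 1.5-fold was required. On the total-count scale, ribosomal RNA included, the median of all rows moved to -0.36, the tRNA median to -1.12, and 0 tRNA rows were called in edgeR, with 2 at an unadjusted p below 0.05.

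The deepest falls were those of tRNA-Glu-GAA and tRNA-Gln-CAA. Glutamate and glutamine differ only by the side-chain amide, and both rows of each fell. tRNA-Gln-CAA, which reads the codon CAA, had 10, 24 and 14 counts in KO replicates 1 to 3, against 177, 59 and 105 in WT replicates 1 to 3. That is 1.23, 1.19 and 0.944 normalized CPM in KO and 7.34, 7.67 and 7.31 in WT. The KO level was 0.151 of the WT level, a log2 fold change of -2.73 ± 0.19 (SE, edgeR adjusted p = 0.000529), the smallest adjusted p among tRNA rows. tRNA-Glu-GAA had 1.10, 0.944 and 0.472 normalized CPM in KO, against 4.73, 6.37 and 6.68 in WT. Its log2 fold change was -2.82 ± 0.31 (SE, edgeR adjusted p = 0.00312). In both rows every KO library lay far below the lowest WT library, and both calls were kept when any single library was left out.

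The partner rows had fewer counts and smaller falls. tRNA-Gln-CAG had 7, 9 and 6 counts in KO and 37, 18 and 28 in WT, and a log2 fold change of -1.82 ± 0.35 (SE, edgeR adjusted p = 0.0206). tRNA-Glu-GAG had 4, 12 and 6 counts in KO and 35, 12 and 19 in WT, which was 0.490, 0.596 and 0.405 normalized CPM in KO and 1.45, 1.56 and 1.32 in WT, a log2 fold change of -1.48 ± 0.29 (SE, edgeR adjusted p = 0.0206). The normalized levels did not overlap, although KO replicate 2 and WT replicate 2 had equal raw counts of tRNA-Glu-GAG. The call of tRNA-Gln-CAG was lost without KO replicate 2 (-1.67), KO replicate 3 (-1.67), WT replicate 2 (-1.72) or WT replicate 3 (-1.78). That of tRNA-Glu-GAG was lost with DESeq2 (-1.51) and without KO replicate 1 (-1.47), KO replicate 2 (-1.69), KO replicate 3 (-1.34), WT replicate 1 (-1.46), WT replicate 2 (-1.45) or WT replicate 3 (-1.53).

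Within each of these amino acids the row with the codon ending in A made up a smaller share in KO. tRNA-Glu-GAA gave 61.5% ± 7.69 of the glutamate tRNA counts in KO and 80.1% ± 3.49 in WT. tRNA-Gln-CAA gave 67.2% ± 7.37 of the glutamine tRNA counts in KO and 79.4% ± 3.07 in WT. Such shares do not depend on the scaling of libraries. The genotypes did not overlap in either, which gives p = 0.1 in an exact two-sided permutation test, the smallest that 3 against 3 libraries allow (adjusted p = 0.3 over the rows of all amino acids with more than 1 row). In other amino acids, rows ending in A without overlap went both ways. tRNA-Lys-AAA (75.2% in KO, 81.9% in WT) and tRNA-Pro-CCA (61.8% and 73.8%) took smaller shares in KO. tRNA-Ala-GCA (36.1% and 32.2%), tRNA-Gly-GGA (68.1% and 53.9%) and tRNA-Val-GTA (51.8% and 21.4%) took larger ones.

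**Figure D2:**
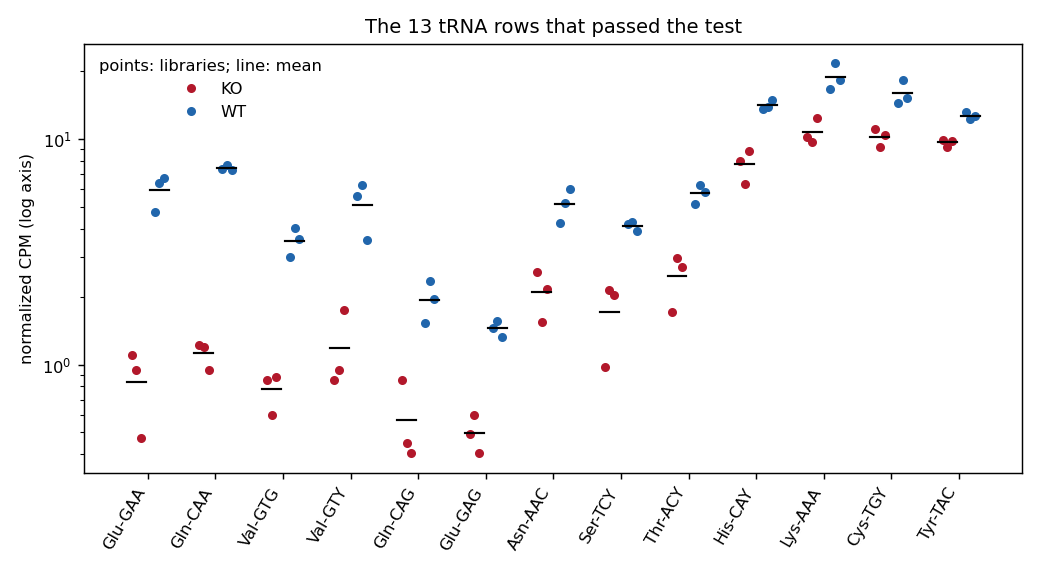
Normalized CPM on a log axis of the 13 tRNA rows that passed the test, with KO libraries (red) left of WT libraries (blue) and the mean as a line. The genotypes do not overlap in any of them, and the distance is widest for tRNA-Glu-GAA and tRNA-Gln-CAA.

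The valine rows did not move alike. tRNA-Val-GTG had 0.858, 0.596 and 0.877 normalized CPM in KO replicates 1 to 3, against 2.99, 4.03 and 3.62 in WT replicates 1 to 3, a log2 fold change of -2.19 ± 0.27 (SE, edgeR adjusted p = 0.00441). tRNA-Val-GTY, for the codons GTC and GTT, had 0.858, 0.944 and 1.75 in KO, against 5.56, 6.24 and 3.55 in WT, a log2 fold change of -2.06 ± 0.34 (SE, edgeR adjusted p = 0.0132). KO replicate 3 and WT replicate 3 were the libraries nearest to each other. Among the fits without a single library, tRNA-Val-GTY lost its call without KO replicate 2 (-1.83), while tRNA-Val-GTG kept its call in all of them. The third row, tRNA-Val-GTA, had 2.33, 2.38 and 1.55 in KO, against 1.95, 2.34 and 2.64 in WT, with overlapping libraries. Its log2 fold change was -0.13 with a 95% interval of -0.72 to 0.47 (edgeR adjusted p = 0.844), an interval that does not overlap those of tRNA-Val-GTG (-2.82 to -1.57) and tRNA-Val-GTY (-2.82 to -1.29).

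The rows of valine also took different shares of its tRNA counts. tRNA-Val-GTA gave 51.8% ± 12.8 of the valine tRNA counts in KO and 21.4% ± 4.84 in WT, the largest difference in share of any row within its amino acid (exact two-sided permutation p = 0.1, adjusted p = 0.3, n = 3 each). The lowest KO library, replicate 3, was at 37.1% (exact 95% interval 25.2 to 50.3), and the highest WT library, replicate 3, at 27.0% (19.8 to 35.1).

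**Figure D3:**
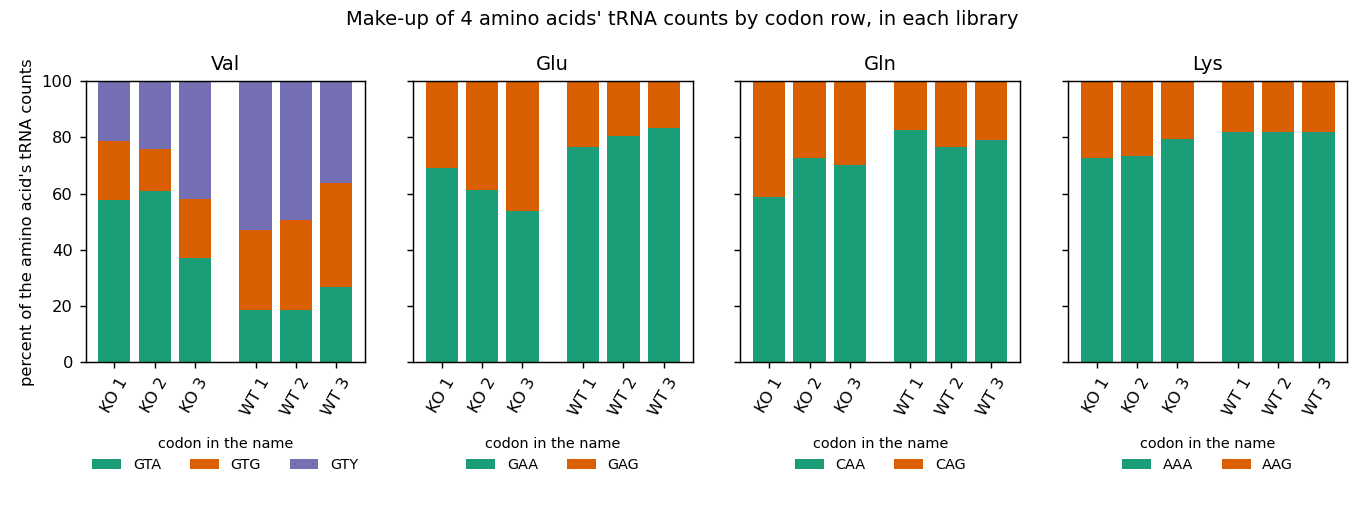
Percent of the tRNA counts of valine, glutamate, glutamine and lysine that came from each codon row, one stacked bar per library, KO left of WT. The part of tRNA-Val-GTA averages 51.8% in KO and 21.4% in WT, and that of tRNA-Glu-GAA 61.5% in KO and 80.1% in WT.

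One row each of asparagine, threonine, serine and histidine fell, with log2 fold changes between -1.34 and -0.90. tRNA-Asn-AAC, the only asparagine row, had 2.57, 1.54 and 2.16 normalized CPM in KO replicates 1 to 3, against 4.23, 5.20 and 5.99 in WT replicates 1 to 3, a log2 fold change of -1.34 ± 0.25 (SE, edgeR adjusted p = 0.0205). tRNA-Thr-ACY, for the threonine codons ACC and ACT, had 1.72, 2.98 and 2.70 in KO, against 5.15, 6.24 and 5.85 in WT, a log2 fold change of -1.12 ± 0.21 (SE, edgeR adjusted p = 0.0206). tRNA-Ser-TCY, for the serine codons TCC and TCT, had 0.980, 2.14 and 2.02 in KO, against 4.19, 4.29 and 3.90 in WT, a log2 fold change of -1.16 ± 0.26 (SE, edgeR adjusted p = 0.0388). KO replicate 1 was the lowest library for both. tRNA-His-CAY, the only histidine row, had 7.96, 6.31 and 8.84 in KO, against 13.6, 13.9 and 14.9 in WT, a log2 fold change of -0.90 ± 0.14 (SE, edgeR adjusted p = 0.00985). Of these, tRNA-His-CAY kept its call when any single library was left out.

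The calls of the other 3 rows were not kept in every fit without a single library. tRNA-Asn-AAC lost its call without KO replicate 2 (-1.12), KO replicate 3 (-1.42) or WT replicate 3 (-1.19). tRNA-Thr-ACY lost it without KO replicate 2 (-1.29), KO replicate 3 (-1.16), WT replicate 2 (-1.07) or WT replicate 3 (-1.09). tRNA-Ser-TCY lost it without KO replicate 2 (-1.34), KO replicate 3 (-1.24), WT replicate 1 (-1.15), WT replicate 2 (-1.14) or WT replicate 3 (-1.19). The remaining serine rows, tRNA-Ser-AGY and tRNA-Ser-TCG, had log2 fold changes of -0.69 and -0.68 and missed the threshold (edgeR adjusted p = 0.149 and 0.298). tRNA-Thr-ACA, at -0.67, did not pass either (edgeR adjusted p = 0.152), and tRNA-Thr-ACG had at most 3 counts in a library and was not tested.

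The called lysine, cysteine and tyrosine rows fell by less than 2-fold and had higher levels. tRNA-Lys-AAA had 10.2, 9.68 and 12.3 normalized CPM in KO replicates 1 to 3, against 16.7, 21.6 and 18.3 in WT replicates 1 to 3, a log2 fold change of -0.78 ± 0.13 (SE, edgeR adjusted p = 0.0133). It lost the call without KO replicate 2 (-0.70) or WT replicate 3 (-0.79). The other lysine row, tRNA-Lys-AAG, had 3.80, 3.53 and 3.17 in KO, against 3.65, 4.81 and 4.04 in WT, with overlapping libraries, and its log2 fold change of -0.22 missed the threshold (edgeR adjusted p = 0.550). The share of tRNA-Lys-AAA in the lysine tRNA counts was 75.2% ± 3.77 in KO and 81.9% ± 0.134 in WT, without overlap (exact two-sided permutation p = 0.1, adjusted p = 0.3, n = 3 each).

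tRNA-Cys-TGY, the only cysteine row, had 11.0, 9.24 and 10.5 normalized CPM in KO, against 14.4, 18.2 and 15.2 in WT, a log2 fold change of -0.63 ± 0.12 (SE, edgeR adjusted p = 0.0206). It lost the call without KO replicate 2 (-0.55), KO replicate 3 (-0.66) or WT replicate 3 (-0.64). tRNA-Tyr-TAC had 9.92, 9.24 and 9.78 in KO, against 13.1, 12.2 and 12.6 in WT, a log2 fold change of -0.41 ± 0.09 (SE, edgeR adjusted p = 0.0439). Its libraries were tight within each genotype, but it lay near the threshold and lost the call with DESeq2 (-0.40), with the ribosomal RNA level as a covariate (-0.40), with a mean of at least 50 counts required (-0.41), and whichever single library was left out. Those values were -0.43 without KO replicate 1, -0.37 without KO replicate 2, -0.43 without KO replicate 3, -0.37 without WT replicate 1, -0.43 without WT replicate 2 and -0.40 without WT replicate 3.

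Summed over their rows, alanine and isoleucine tRNAs held most of their level. tRNA-Ala-GCA had 14.1, 13.8 and 12.1 normalized CPM in KO replicates 1 to 3, against 13.4, 13.7 and 13.3 in WT replicates 1 to 3, with overlapping libraries. Its log2 fold change was -0.018, with a 95% interval of -0.23 to 0.19 (edgeR adjusted p = 0.940). tRNA-Ala-GCG had 15.7, 14.3 and 13.3 in KO, against 16.0, 14.3 and 15.4 in WT, a log2 fold change of -0.10 with an interval of -0.31 to 0.11 (edgeR adjusted p = 0.571). tRNA-Ala-GCY averaged 9.24 ± 1.58 in KO and 13.1 ± 2.69 in WT. Its libraries did not overlap, and its log2 fold change of -0.48 missed the threshold (edgeR adjusted p = 0.179), which it passed with the ribosomal RNA level as a covariate (-0.58). tRNA-Ile-ATC had 13.1, 14.2 and 9.04 in KO, against 10.7, 13.0 and 11.3 in WT, a log2 fold change of 0.079 with an interval of -0.32 to 0.48 (edgeR adjusted p = 0.854). Its sign turned on the total-count scale (-0.16), without KO replicate 2 (-0.095) and without both WT replicate 1 and KO replicate 2 (-0.15).

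Of the other rows that did not pass, several had intervals too wide to tell a 2-fold fall from none. Among them were tRNA-Arg-CGA (-1.82 to 0.16), tRNA-Pro-CCA (-1.64 to 0.31) and tRNA-Arg-CGY (-1.39 to 0.38). tRNA-Arg-AGG, at 5.01 ± 0.440 in KO and 5.13 ± 0.649 in WT, had a narrow interval of -0.46 to 0.31 around a log2 fold change of -0.078. The initiator tRNA-Met-i, with 4, 9 and 9 counts in KO and 21, 12 and 17 in WT, stood at a log2 fold change of -1.11 and missed the threshold (edgeR adjusted p = 0.104), and tRNA-Met stood at 0.28 (edgeR adjusted p = 0.692). The initiator gave 36.3% ± 7.17 of the methionine tRNA counts in KO and 60.6% ± 12.9 in WT, without overlap, on 9 to 42 counts a library (exact two-sided permutation p = 0.1, adjusted p = 0.3, n = 3 each). The 3 glycine rows lay between -1.51 and -0.31, and the 3 tested leucine rows between -0.86 and -0.062. Aspartate, phenylalanine and tryptophan, with 1 row each, stood at -1.04, -0.89 and -0.79. The intervals lay below 0 for tRNA-Met-i (-1.90 to -0.33), tRNA-Gly-GGG (-2.57 to -0.46) and tRNA-Gly-GGY (-1.56 to -0.40). They also did for tRNA-Asp-GAY (-1.70 to -0.38), tRNA-Phe-TTY (-1.45 to -0.33) and tRNA-Trp-TGG (-1.37 to -0.20). The same held for tRNA-Leu-TTA (-1.58 to -0.13) and tRNA-Leu-CTY (-1.51 to -0.045), while those of tRNA-Gly-GGA, tRNA-Leu-CTG and tRNA-Met included 0. Of the 6 rows not tested, tRNA-Pro-CCY and tRNA-Arg-AGA had 2 to 13 counts a library and tRNA-Leu-TTG, tRNA-Thr-ACG and tRNA-Pro-CCG had 0 to 6. tRNA-Tyr-TAT had 0 in every KO library and 1, 0 and 0 in WT, where a count of 0 allows up to 3.

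Summed over the rows of an amino acid, KO levels lay below all WT levels for 16 of the 20 amino acids. They overlapped for proline, methionine, arginine and isoleucine. Among single rows, 13.4% of all tested rows had all KO libraries below all WT libraries. The sums hold the same counts as the rows above, and an amino acid with 1 row repeats that row. Glutamine tRNA summed to 1.69 ± 0.370 normalized CPM in KO and 9.38 ± 0.578 in WT, 0.180 of the WT level. Glutamate tRNA summed to 1.34 ± 0.399 in KO and 7.37 ± 1.03 in WT, and valine tRNA to 4.05 ± 0.129 in KO and 11.0 ± 1.46 in WT. At the other end, alanine tRNA summed to 37.0 ± 2.26 in KO and 41.8 ± 1.97 in WT, and isoleucine tRNA to 17.4 ± 1.03 in KO and 18.7 ± 1.30 in WT. These sums were not tested.

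**Figure D4:**
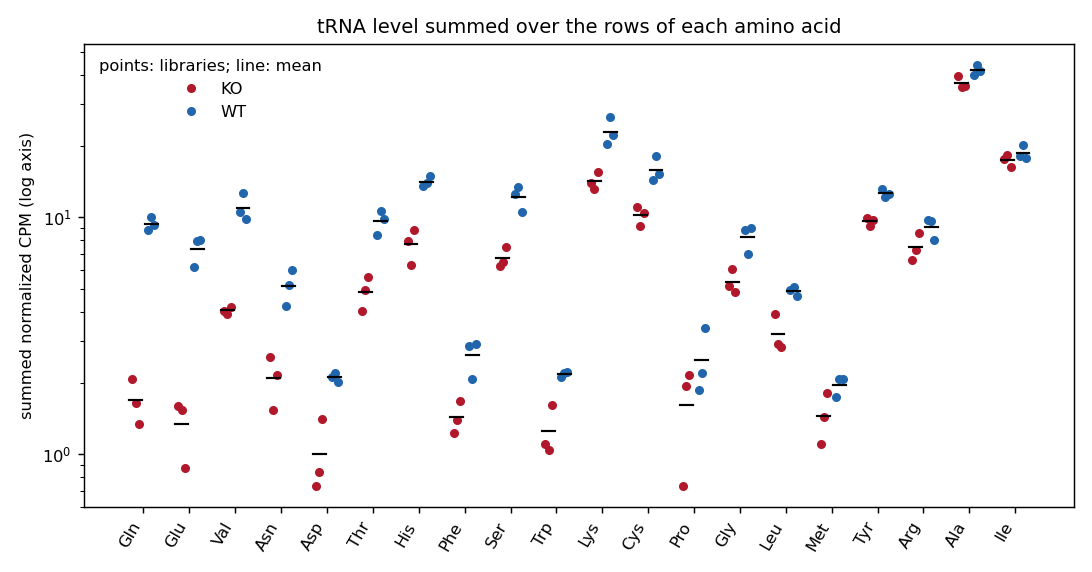
Normalized CPM summed over the tRNA rows of each amino acid, on a log axis, KO libraries (red) left of WT libraries (blue), with the mean as a line, ordered by the ratio of KO to WT. Glutamine and glutamate stand at 0.180 and 0.181 of the WT mean at the left, alanine and isoleucine at 0.884 and 0.932 at the right.

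The share of each amino acid in all tRNA counts was compared, a measure free of library scaling. Alanine took 26.5% ± 1.49 of all tRNA counts in KO and 19.5% ± 0.128 in WT, and isoleucine 12.5% ± 1.12 in KO and 8.70% ± 0.279 in WT. Glutamine took 1.21% ± 0.267 in KO and 4.37% ± 0.0340 in WT, glutamate 0.961% ± 0.302 in KO and 3.43% ± 0.381 in WT, and valine 2.90% ± 0.0311 in KO and 5.10% ± 0.461 in WT. Asparagine and threonine also took smaller shares and tyrosine a larger one. For these 8 amino acids the genotypes did not overlap, which gives p = 0.1 in an exact two-sided permutation test with 3 libraries each, the smallest possible, and an adjusted p of 0.25 over the 20 amino acids. For the other 12 the libraries overlapped.

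The tested rows were also grouped by codon and by amino acid properties. By the third codon base, 5 of 12 rows ending in Y, 3 of 11 ending in A and 3 of 10 ending in G fell. Their medians were -0.89, -0.67 and -0.73. Of the 3 rows ending in C 2 fell (median -0.41), and the 1 row ending in T did not pass. Of all 39 tRNA rows 13 fell, and over all tested rows 3.6% were called lower. All KO libraries lay below all WT libraries in 11 of the 12 Y rows, 5 of the 11 A rows and 5 of the 10 G rows, against 24 of all 39 tRNA rows and 13.4% of all tested rows. By side chain, 7 of 10 polar, 2 of 3 acidic, 2 of 6 basic and 2 of 20 nonpolar rows fell, with medians of -0.91, -1.48, -0.65 and -0.57. By the class of synthetase, 8 of 21 rows of class I and 5 of 18 of class II fell, with medians of -0.78 and -0.74. Of the 6 leucine and serine rows, whose tRNAs have a long variable arm, 1 fell (median -0.73). Differences between these groups were not tested.

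The levels of the rows were set beside the number of tRNA genes. RefSeq on GRCm38.p6, in the table used here, lists 408 nuclear tRNA genes with an anticodon in their symbol, with a median length per row of 71 to 106 bases, so levels between rows are given per kilobase. tRNA-Lys-AAA, with 2 matching genes, had 203 normalized CPM per kilobase as the mean of all 6 libraries, and tRNA-Lys-AAG, with 24, had 52.5. tRNA-Cys-TGY, with 57 genes, the most of any row, had 182, and tRNA-Ala-GCG, with 9, had the highest, 206. For tRNA-Ile-ATC, at 11.9 normalized CPM, 0 of these genes had the exactly complementary anticodon. Over the 37 tested rows outside methionine, Spearman's rho between gene number and mean normalized CPM, not per kilobase, was 0.042. Between gene number and log2 fold change it was -0.16. The rows share libraries and may share reads, so these are descriptions.

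Other RNAs made by RNA polymerase III had a median log2 fold change of -0.23 over 8 tested rows of 10, against -0.78 for tRNA. In edgeR 0 of the 8 passed in either direction, against 3.6% of all tested rows called lower and 2.18% called higher. At an unadjusted edgeR p below 0.05, 4 were lower and 0 higher, against 11.3% and 9.56% of all tested rows. DESeq2 called 7SLRNA and BC1_Mm lower, and limma-voom and the fit with the ribosomal RNA level as a covariate called BC1_Mm lower. The difference between these rows and tRNA was not tested. 7SK, which holds the elongation factor P-TEFb inactive, averaged 21076 ± 1663 normalized CPM in KO and 23729 ± 2474 in WT. U6, a spliceosomal RNA, had 37.6, 35.9 and 35.3 in KO and 40.2, 45.5 and 40.4 in WT, which as log2 was -0.21 (edgeR adjusted p = 0.0953). BC1_Mm, a neuronal RNA whose gene derives from an alanine tRNA and whose row may share reads with related ID elements, was at 1479 ± 67.0 in KO and 1772 ± 89.4 in WT, at -0.26 (edgeR adjusted p = 0.131). The signal recognition particle RNA row 7SLRNA was at -0.34 and the 5S ribosomal RNA row at 0.44, and neither passed (edgeR adjusted p = 0.278 and 0.601).

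Among the 9 other tested small nuclear and nucleolar RNAs, 3 fell and 0 rose in edgeR, against 3.6% and 2.18% of all tested rows, and all had log2 fold changes below 0 (median -0.50). With DESeq2, and with the ribosomal RNA level as a covariate, 5 were called lower, U1 and U17 being added, and on the total-count scale edgeR called 0, with 0 at an unadjusted p below 0.05. The 3 were U3 and U8, which act in ribosomal RNA processing, and the spliceosomal U2, at -1.70, -1.36 and -1.14 (edgeR adjusted p = 0.000808, 0.0446 and 0.00429). U8 lost its call whichever single library was left out, with values of -1.38 without KO replicate 1, -1.04 without KO replicate 2, -1.72 without KO replicate 3, -1.51 without WT replicate 1, -1.43 without WT replicate 2 and -1.11 without WT replicate 3. All small nuclear and nucleolar RNA rows together, U6 included, had 1384, 1412 and 1926 normalized CPM in KO replicates 1 to 3, against 2635, 2758 and 2860 in WT replicates 1 to 3. Their sum was thus lower in the same libraries as tRNA, and its part in the tRNA result was not tested.

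**Figure D5:**
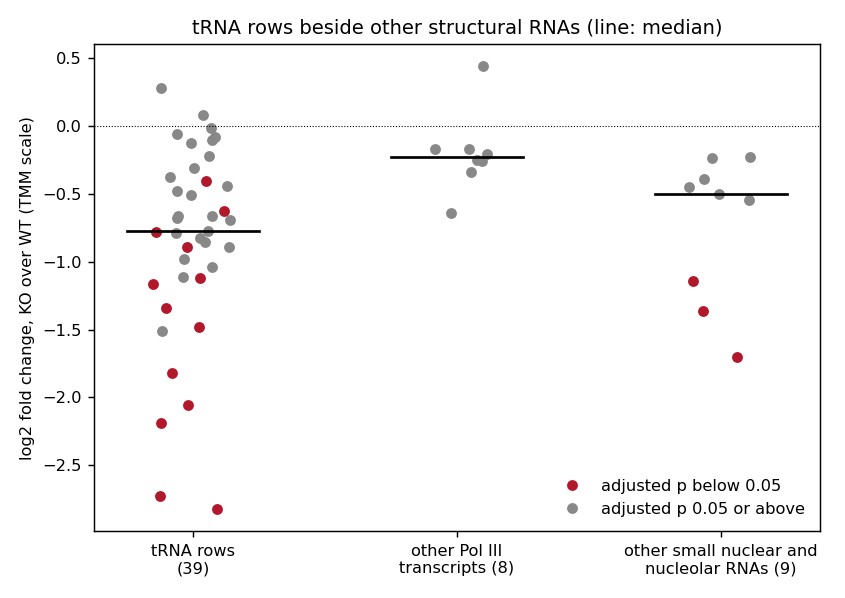
Log2 fold change of KO over WT on the TMM scale for 39 tRNA rows, 8 other RNA polymerase III transcripts and 9 other small nuclear and nucleolar RNAs, one point per row, red where the adjusted p is below 0.05, with the median as a line. The medians are -0.78, -0.23 and -0.50.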

How the data were processed

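Total RNA, with ribosomal RNA removed by TruSeq Ribo-Zero per the labels, was sequenced from 3 KO and 3 WT samples, groups and replicate numbers being those of the sample titles. The submitters' processing notes name Bowtie2, Trimmomatic, FastQC 0.11.5 and the builds mm10 and GRCm38. The authors deposited estimated counts (fractional counts by file name, here all whole numbers) for each repeat name, without normalization. The repeat counter, its annotation, the strand setting and the treatment of reads shared between rows, all not given in the sources used here, could let similar tRNA rows share reads.

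The fit covered all 1336 rows and used edgeR 4.0.16 in R 4.3.3 (filterByExpr, TMM, quasi-likelihood test, Benjamini-Hochberg over 1193 tested rows at 0.05), with standard errors from the test statistic. In raw counts, ribosomal RNA included, replicate pairs differed by more than sampling noise, the lowest chi-square per degree of freedom being 477. That measure includes differences in the ribosomal RNA share and was not computed without it. The procedure was run on counts simulated from its own fitted means and dispersions, with rises and falls equally likely. That run checks the code and does not bear on the tRNA result. Named rows were those passing, the 6 with the highest mean, the 5 least changed with a mean of at least 50 counts, the initiator row and other rows of the passing amino acids. Further rows were named after their values were seen. Members, lists and tests were chosen with earlier results of these data known. Alternatives used DESeq2 1.42.0, limma 3.58.1, other scalings, filters and covariates, a minimum change, and fewer libraries.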

Additional observations from a re-analysis of the deposited data

How the results depend on the processing

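The 13 tRNA rows called lower became 0 on the total-count scale, 6 with a mean of at least 50 counts required (which left 15 tRNA rows tested), 3 with a minimum change of 1.5-fold, 3 without both WT replicate 1 and KO replicate 2, and 4 to 11 without a single library. With DESeq2 11 passed, and 13 with DESeq2 size factors, TMM on transposable elements, no ribosomal RNA rows, no count filter, limma-voom or the ribosomal RNA covariate, which exchanged tRNA-Tyr-TAC for tRNA-Ala-GCY. With the replicate number as a block 5 rows were called: tRNA-Gln-CAA, tRNA-Glu-GAA, tRNA-Val-GTG, tRNA-His-CAY and tRNA-Lys-AAA. The other rows called in the main fit lost their calls there. The replicate numbers mark no stated pairing, and deviations from the group means correlated at -0.63 for the libraries numbered 1, -0.59 for those numbered 2 and 0.059 for those numbered 3. KO replicate 2 and WT replicate 1, with 52.9% and 32.4% ribosomal RNA, correlated at 0.69. KO replicate 1 and WT replicate 2, with 84.8% and 84.1%, correlated at 0.55. The remaining pairs lay between -0.22 and 0.16. Over all tested rows, the 43 called lower became 0 on the total-count scale and 14 with the block. The cause of these losses was not tested. In these alternatives 0 tRNA rows were called higher. The log2 ratio of the tRNA total, -0.62, was -0.97 on the total-count scale and -0.58 to -0.65 in the others run for it.

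In the alternatives run, signs turned only among named rows that had not passed. Over the fits without 1 library, tRNA-Ala-GCA ranged from -0.053 to 0.042, tRNA-Arg-AGG from -0.15 to 0.061, tRNA-Val-GTA from -0.29 to 0.053 and tRNA-Ile-ATC from -0.095 to 0.26. Without both WT replicate 1 and KO replicate 2, tRNA-Arg-AGG was at 0.11 and tRNA-Ile-ATC at -0.15, and on the total-count scale tRNA-Ile-ATC was at -0.16. Counts of 1153 to 4931 per library limit what the rarer tRNA rows can show.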
